A study of Sus scrofa with 20 samples.

Results

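GSTA1 encodes an alpha-class glutathione S-transferase, and its level was followed in the ileal mucosa of suckling and weaned piglets. The Affymetrix GeneChip Porcine Genome Array carries 24123 probe sets, and the platform annotation assigns 3 of them to GSTA1, which is 1 of 6765 genes that the annotation names. The array measures each transcript with short probes grouped into a probe set, and the values described here are log2 values after gcRMA, on which a difference of 1 is a 2-fold difference. GSTA1 was selected on measured values in an earlier look at these same arrays. Between suckling piglets of 21 and 28 days it was the single probe set of 23999 tested (0.00417%) with an adjusted p under 0.05 (limma). At an unadjusted p under 0.05 there were 389 probe sets. Because of this selection, the levels and differences of GSTA1 are described here without any test.

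Each of the 20 arrays held the RNA of scraped ileal mucosa from 1 crossbred Landrace × Large white × Duroc piglet raised in Japan. Suckling piglets stayed with the sow, without access to the feed of the sow, until they were killed at 14 days (S14D, n = 3), 21 days (S21D, n = 4), 28 days (S28D, n = 4) or 35 days (S35D, n = 3). Piglets weaned at 21 days onto a commercial weanling diet were killed at 28 days (21W28D, n = 3) or 35 days (21W35D, n = 3). The labels tie no array to a litter or sow. Littermates and unrelated piglets therefore cannot be told apart, and the number of arrays limits the precision. The mucosa is a mixture of epithelium, lymphoid tissue and other cells, so fewer cells of a type and less RNA per cell cannot be told apart.

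Glutathione S-transferases join the tripeptide glutathione to electrophilic compounds, which are then exported and broken down outside the cell. The alpha class is abundant in liver and in the absorptive cells of the small intestine, where it handles reactive compounds from food and products of lipid peroxidation and also binds hydrophobic ligands. Cells sustain the pathway by making glutathione from cysteine and glutamate and by reducing its oxidised form, and several of its genes are targets of the electrophile-sensing factor NRF2.

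The labels of a pair of groups, S35D and 21W28D, were in doubt. The account of the study and the deposited labels place a large difference from S28D in different groups. By the deposited labels, 1570 of 23999 probe sets passed the test from S28D to S35D and 0 from S28D to 21W28D, and by construction an exchange of the labels turns these counts round. Correlations between arrays did not settle the labels: all 3 arrays labelled S35D correlated more closely with the 21W35D mean than with the S28D mean, and 2 of 3 arrays labelled 21W28D correlated more closely with S28D than with 21W35D, as arrays of the same labelled age. Of the arrays labelled 21W35D, 1 of 3 correlated more closely with S35D than with S28D. By real-time PCR, the paper has the interferon-response gene IFIT2 (ISG54) higher in 21W28D than in S35D. The array means of IFIT2 were 10.12 in arrays labelled 21W28D and 13.17 in arrays labelled S35D, which is the reverse. Both the gene counts and IFIT2 take the order of the paper when the labels are exchanged. Whether the labels were exchanged was not tested, and values are given by the deposited labels. Under the exchange, each value given for S28D to S35D, of any gene or marker, is the value for S28D to 21W28D, with the same size and test, and each group value of S35D is that of 21W28D. Exchanged values are printed for the GSTA1 differences and the counts of glutathione genes. Array 1 of S14D had a correlation of 0.953 with the S21D mean and of 0.940 with its own group. Most of the 20 arrays, among them every array labelled 21W28D or 21W35D, likewise correlated best with the mean of another group. The own-group mean was taken without the array itself. Array 2 of 21W35D also stood apart. Its correlation with the mean of its own group was 0.874, and it was the 1 array of 20 with a value of 8.17 for GATA4, a transcription factor of the proximal small intestine, which lay between 2.08 and 2.16 in the other arrays. The labelled tissue was otherwise borne out by several markers. FABP6, the bile acid carrier of the ileum, had group means of 13.84 at S14D and above in every other group. VIL1 of the enterocyte brush border had group means between 13.50 and 14.28, and ALB of the liver was at the floor of 2.08 in all 20 arrays. Other listed markers did not follow. LRP2, listed for the distal ileum, did not exceed 2.17, and SERPINA1, listed for hepatocytes, reached 6.54 in an array labelled S35D.

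The brightest GSTA1 probe set was lowest at S21D and highest in the arrays labelled S35D. At S14D it read 8.62, 9.15 and 9.53. At S21D it read 4.11, 5.18, 5.83 and 4.58, all below the 3 values of S14D. At S28D it read 11.55, 9.65, 11.39 and 13.42, so that the lowest of these arrays stood 3.82 above the highest S21D array. The arrays labelled S35D read 14.20, 14.86 and 14.88, and all 3 exceeded every other array. Weaned piglets lay between these extremes, with 11.03, 8.33 and 9.63 in the arrays labelled 21W28D and 11.92, 12.53 and 11.74 in 21W35D.

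**Figure D1:**
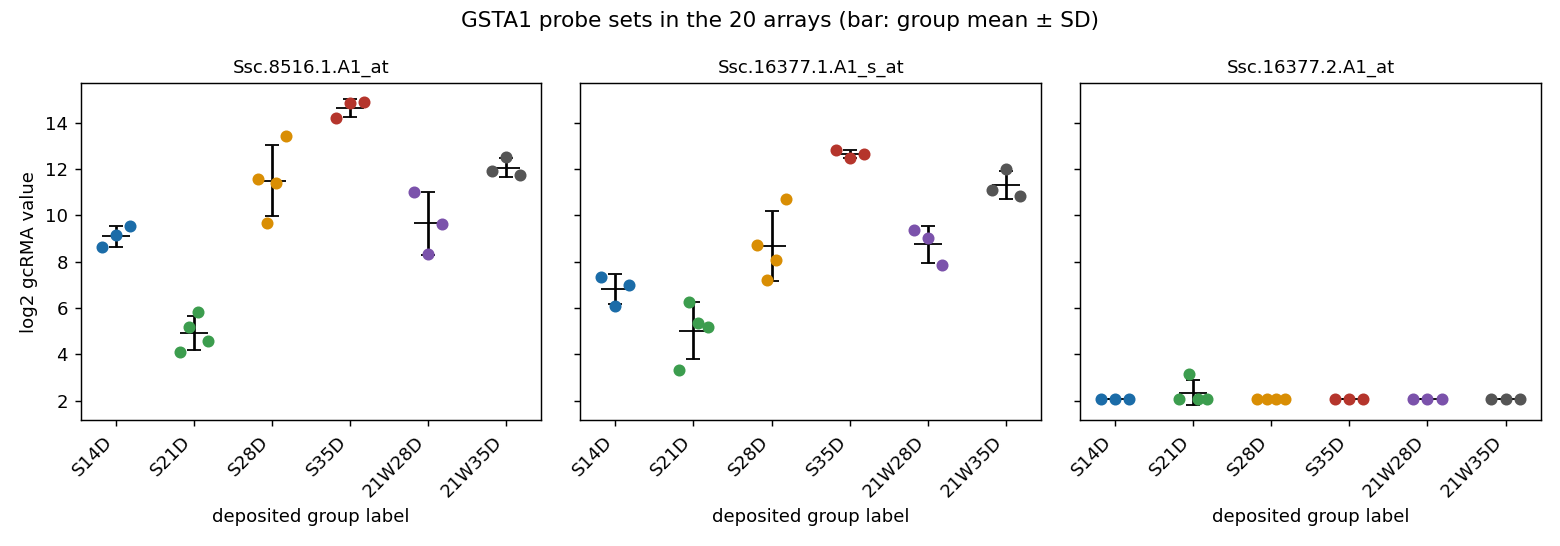
Log2 gcRMA values of the 3 GSTA1 probe sets in each of the 20 arrays, by deposited group label; points are piglets and bars are the group mean ± SD. In the left panel the 4 S21D arrays lie between 4.11 and 5.83 and the 3 arrays labelled S35D between 14.20 and 14.88, while the probe set on the right sits at the floor in all arrays but 1.

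The group means of this probe set were 9.10 ± 0.46 at S14D (SD, n = 3), 4.93 ± 0.74 at S21D (SD, n = 4), 11.50 ± 1.54 at S28D (SD, n = 4), 14.65 ± 0.39 in arrays labelled S35D (SD, n = 3), 9.66 ± 1.35 in arrays labelled 21W28D (SD, n = 3) and 12.06 ± 0.42 in 21W35D (SD, n = 3). From low to high the order was S21D, S14D, 21W28D, S28D, 21W35D and S35D. The neighbours S14D and 21W28D, 21W28D and S28D, and S28D and 21W35D overlapped in their arrays, whereas S21D lay apart below and S35D apart above. The range of group means was 9.72, and 4 of the 23999 probe sets had a larger one. This rank is not independent of the choice of GSTA1, which was made on the difference between S21D and S28D.

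Stated as log2 differences between groups with the SE of the linear model, GSTA1 was 4.17 ± 0.74 lower at S21D than at S14D, and the arrays did not overlap. It was 6.58 ± 0.69 higher at S28D than at S21D, a 95.5-fold difference on the gcRMA scale. The probe set next in order of adjusted p in that comparison, on which GSTA1 was chosen, was FABP7, a fatty acid binding protein. Its difference was -2.28. GSTA1 was a further 3.14 ± 0.74 higher in arrays labelled S35D than at S28D, with a gap of 0.78 between the nearest arrays. With S35D and 21W28D exchanged, that last step became a difference of -1.84.

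**Figure D2:**
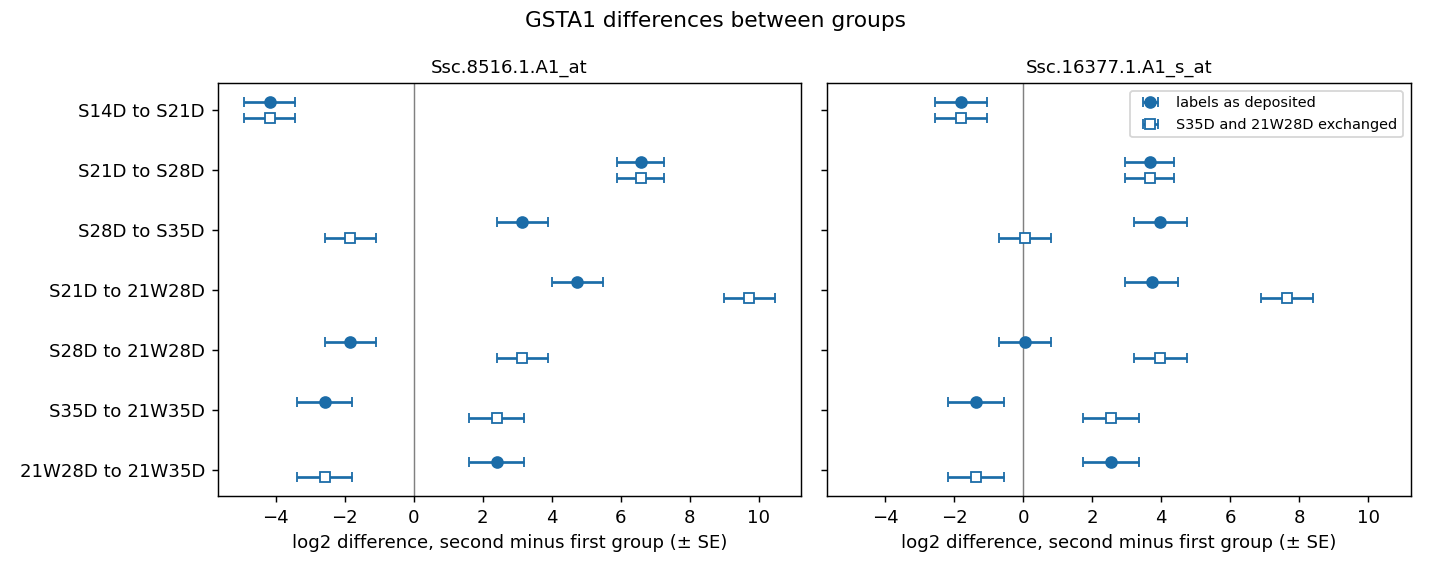
Log2 differences of the brighter pair of GSTA1 probe sets (second group minus first, ± SE) for 7 comparisons, with labels as deposited (filled) and with S35D and 21W28D exchanged (open). The differences from S14D to S21D and from S21D to S28D rest on no doubtful label and stand at -4.17 and 6.58 on the left, where 4 of the other 5 comparisons change sign under the exchange.

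The effect of weaning on GSTA1 was read against suckling piglets of the same age and against the day of weaning. Compared with S21D, the arrays labelled 21W28D were 4.74 ± 0.74 higher and did not overlap. Compared with suckling piglets of 28 days, they were 1.84 ± 0.74 lower, and the arrays of the 2 groups overlapped. At 35 days the weaned piglets were 2.58 ± 0.79 lower than the arrays labelled S35D, with a gap of 1.67, and without array 2 of 21W35D this difference was -2.82. From 28 to 35 days within the weaned piglets GSTA1 was 2.40 ± 0.79 higher, or 2.17 without that array. Under exchanged labels these 4 differences became 9.72, 3.14, 2.40 and -2.58, so that the direction of the weaning difference at either age depended on which labels are right. Both 28-day groups were higher than S21D under either labelling.

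The second GSTA1 probe set has the suffix _s_at, which Affymetrix gives to probe sets that may detect several related transcripts. It read 7.34, 6.10 and 7.00 at S14D and 3.31, 6.24, 5.35 and 5.18 at S21D, so these groups overlapped. At S28D it read 8.74, 7.19, 8.08 and 10.73, all above S21D. It read 12.84, 12.49 and 12.67 in arrays labelled S35D, 9.37, 9.02 and 7.85 in arrays labelled 21W28D, and 11.09, 11.99 and 10.83 in 21W35D. S21D was again the lowest group and S35D the highest. The log2 difference was -1.79 ± 0.76 from S14D to S21D, 3.67 ± 0.70 from S21D to S28D, 3.98 ± 0.76 from S28D to S35D and 0.06 ± 0.76 from S28D to 21W28D, and the last 2 values change places under exchanged labels. It was 3.73 ± 0.76 from S21D to 21W28D, -1.36 ± 0.81 from S35D to 21W35D and 2.55 ± 0.81 from 21W28D to 21W35D, which became 7.64, 2.55 and -1.36 with the labels exchanged.

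Across the 20 arrays the values of these probe sets had a Pearson r of 0.92 and a Spearman rho of 0.92, and r was 0.68 for deviations from the group means. Both share the same RNA samples, and the S21D arrays formed a low cluster of their own. The brightest probe set exceeded the second by 2.82 ± 0.36 at S28D but by -0.09 ± 0.88 at S21D (SD, n = 4 for both), so the probe sets did not keep a fixed distance. The third probe set was at the floor of 2.08 in all arrays except array 2 of S21D, which read 3.16.

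The other genes of glutathione metabolism were placed in 4 lists of 71 genes in all, 41 of which had a probe set with their name and 39 of which exceeded 4 in at least 1 array. They were tested with limma over all 23999 probe sets with Benjamini-Hochberg adjustment. From S21D to S28D, where the brightest GSTA1 probe set was 6.58 higher, 0 of the 41 passed an adjusted p of 0.05. The GSTA1 probe set by which the gene was chosen was the 1 of 23999 to pass there (0.00417%). The 0 was thus set by that choice and carries no result for these genes. PTGES and GPX7 had an unadjusted p under 0.05 (limma), with differences of -1.25 and -0.43, as had 389 of all probe sets. The median difference of the 41 genes was -0.07 against 0 for all probe sets tested. From S14D to S21D 3 of the listed genes rose and 7 fell, and from S28D to S35D 8 rose and 2 fell. Over the whole array 14.9% of probe sets passed the test from S14D to S21D (7.27% higher and 7.63% lower), and 6.54% from S28D to S35D (3.53% higher and 3.01% lower). The median of the 41 genes was -0.18 in the first of these comparisons and 0.41 in the second, against 0 for all probe sets.

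Of 25 other transferases and related proteins listed, 10 were measured, and 3 of them rose from S28D to the arrays labelled S35D. Of all probe sets, 3.53% passed with a rise there. GSTO1, the omega-class transferase that also reduces dehydroascorbate, read 11.53, 11.26, 11.61 and 12.32 at S28D and 13.81, 13.29 and 13.42 in arrays labelled S35D. These groups did not overlap, and the difference was 1.83 ± 0.31 with an adjusted p of 0.00967 (limma). PTGES, the microsomal prostaglandin E synthase, read 7.55, 8.43, 7.57 and 8.16 at S28D against 9.85, 9.37 and 10.04, a difference of 1.83 ± 0.39 with an adjusted p of 0.0182. It had read 9.15 to 9.97 at S14D and 8.97 to 9.41 at S21D, so S28D was its lowest suckling group. MGST3, a microsomal transferase of the same superfamily, rose by 0.92 ± 0.23 with an adjusted p of 0.0355. Left out 1 at a time, the 7 arrays kept the call of GSTO1 in 6 fits, of PTGES in 5 and of MGST3 in 3. CLIC1, a chloride channel protein with a transferase fold, was the single member to pass from S14D to S21D. Its rise was 0.60 ± 0.18 with an adjusted p of 0.0376 (limma), and its call was lost in 5 of the 7 fits that left out 1 array. Of all probe sets, 14.9% passed in that comparison.

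GSTM3, a mu-class transferase, had group means of 10.13, 7.99, 6.72, 9.12, 6.18 and 6.43 in the order S14D, S21D, S28D, S35D, 21W28D and 21W35D, and it passed in no comparison. Its S28D mean rested in part on array 2, at 3.34 against 7.52 to 8.12 in the other 3. GSTK1, MGST1, GSTZ1 and LANCL1 also passed in none. GSTA4, which detoxifies the lipid peroxidation product 4-hydroxynonenal, is the alpha-class relative of GSTA1 with a probe set of its own. It lies 4 genes away from GSTA1 in the Sscrofa11.1 gene order, beyond 1 long non-coding RNA and 2 protein-coding genes for which no probe set is listed. Its group means ran from 5.46 to 6.88 with array values from 3.56 to 7.76, and it passed in none of the 7 comparisons. The difference from S21D to S28D was 0.28 ± 0.95 for GSTA4. TMEM14A, the measured gene next to GSTA1 on the other side, was 1.01 ± 0.23 lower at S21D than at S14D (adjusted p = 0.0114, limma) and passed in no other comparison.

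**Figure D3:**
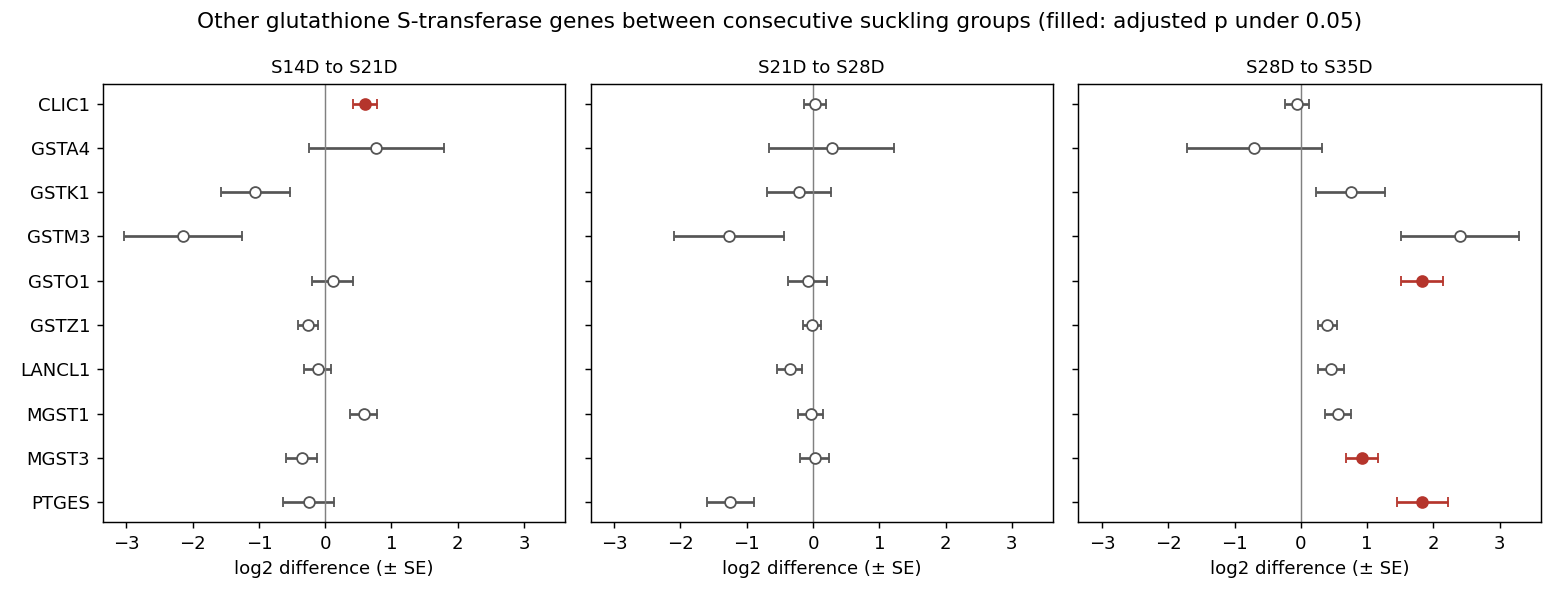
Log2 differences (second group minus first, ± SE) of the 10 measured transferases and related genes other than GSTA1 in the suckling comparisons S14D to S21D, S21D to S28D and S28D to S35D (n = 3, 4, 4 and 3 arrays); filled points passed an adjusted p of 0.05. None passes from S21D to S28D, where GSTA1 itself was the 1 probe set of 23999 to pass. CLIC1 passes in the left panel, and GSTO1, MGST3 and PTGES pass in the right one.

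Of the 8 measured genes listed for glutathione synthesis, 1 rose and 2 fell from S14D to S21D, and 1 rose and 1 fell from S28D to S35D. Over all probe sets 7.27% rose and 7.63% fell in the first comparison, and 3.53% rose and 3.01% fell in the second. CTH, which produces cysteine by transsulfuration, read 10.20, 9.56, 9.53 and 9.96 at S28D and 12.23, 11.67 and 11.90 in arrays labelled S35D. The rise of 2.12 ± 0.31 had an adjusted p of 0.00623 in limma and was kept in all 7 fits without 1 array. MAT2A, which makes S-adenosylmethionine, rose by 0.53 ± 0.12 from S14D to S21D and fell by 0.57 ± 0.12 from S28D to S35D. GSS, the glutathione synthetase, fell by 0.79 ± 0.18 from S14D to S21D. SLC3A2, the shared subunit of amino acid exchangers that carry cystine, also passed with a drop, from 3.69 to 2.64, both near the floor. Without 1 array, the calls of GSS and SLC3A2 were kept in 5 and 4 of the 7 fits. Those of MAT2A were kept in 6 and 5. GCLC, the catalytic subunit of the rate-limiting ligase, was 11.38 ± 0.38 at S14D (SD, n = 3) and 10.55 ± 0.31 at S21D (SD, n = 4), with an adjusted p of 0.0801 in limma.

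Among the 15 measured genes of glutathione reduction and peroxidases, 1 rose and 3 fell from S14D to S21D, and 2 rose from S28D to S35D. Over all probe sets 7.27% rose and 7.63% fell in the first comparison, and 3.53% rose in the second. GPX3, the secreted glutathione peroxidase, read 3.90, 6.92 and 7.39 at S14D and between 2.21 and 2.74 at S21D, with an adjusted p of 7.45e-04. GLRX5, a mitochondrial glutaredoxin of iron-sulfur cluster assembly, fell by 0.94 ± 0.13 in the same interval, and both calls were kept in all 7 fits without 1 array. PRDX6, a peroxidase that uses glutathione, fell by 0.80 and IDH2, a mitochondrial source of NADPH, rose by 0.37; their calls were kept in 2 and 1 of the 7 fits. From S28D to S35D, GSR, which reduces oxidised glutathione, rose by 0.74 ± 0.17 and IDH1, a cytosolic source of NADPH, by 1.21 ± 0.30. The calls of GSR and IDH1 were each kept in 3 of the 7 fits without 1 array.

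Of the 8 measured genes for glutathione breakdown and export, ABCC2, an apical pump for glutathione conjugates, followed GSTA1 in its low level at S21D but not in its level at S28D. It read 2.90, 5.53 and 7.30 at S14D, between 2.25 and 3.11 at S21D, between 2.26 and 2.93 at S28D and 6.33, 5.69 and 5.68 in arrays labelled S35D. Its drop of 2.44 to S21D had an adjusted p of 0.0449 and its rise of 3.32 from S28D an adjusted p of 0.0252 (limma), and these calls were kept in 1 and 3 of the 7 fits without 1 array. CNDP2, a dipeptidase, rose by 1.50 from S28D to S35D. LAP3, an aminopeptidase that cleaves the product of glutathione breakdown, fell by 1.21 from S14D to S21D. The calls of CNDP2 and LAP3 were kept in 4 and 3 of the 7 fits without 1 array. DPEP1, the brush border dipeptidase that acts on cysteinylglycine, moved opposite to most of these genes. It read between 10.73 and 11.91 at S28D and 8.37, 10.02 and 10.05 in arrays labelled S35D, a difference of -1.74 ± 0.46 with an adjusted p of 0.0403 that was kept in 1 of the 7 fits without 1 array.

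Both counts of 10 genes depended on single arrays. Without array 2 or array 3 of S14D the count from S14D to S21D was 3 or 2, and without arrays 1, 3 or 4 of S21D it was 6, 4 or 6. From S28D to S35D it was 4 and 5 without arrays 2 and 3 of S28D and 1 and 3 without arrays 1 and 3 of S35D. With the S35D and 21W28D labels swapped, 0 passed from S28D to S35D, and the 8 that rose and 2 that fell stood instead between S28D and 21W28D. From S28D to S35D the difference was then 0.03 for GSTO1, -0.33 for PTGES, 0.02 for CTH and -0.07 for ABCC2.

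No glutathione gene passed in the comparisons with weaned piglets under the deposited labels. The numbers with an unadjusted p under 0.05 in limma were 2 from S21D to 21W28D, 2 from S28D to 21W28D, 5 from S35D to 21W35D and 10 from 21W28D to 21W35D. Over all probe sets, 0% passed from S21D to 21W28D and 0% from S28D to 21W28D, where 606 and 451 had an unadjusted p under 0.05. In the other pair 0.0458% passed from S35D to 21W35D and 0.0792% from 21W28D to 21W35D, where 1406 and 2126 of 23999 had an unadjusted p under 0.05. With the labels exchanged, 6 glutathione genes rose and 2 fell from S21D to 21W28D, and 3.57% of all probe sets passed.

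Genes of the electrophile response, many of which are NRF2 targets, were also read, with 15 of 22 measured. From S14D to S21D, where GSTA1 was lower, 3 rose and 4 fell, and 7.27% and 7.63% of all probe sets did so. NQO1, a quinone reductase, rose by 1.88 ± 0.45 (adjusted p = 0.0158, limma), whereas HMOX1, which degrades haem, fell by 1.34 ± 0.42. CBR1, a carbonyl reductase, read 12.04, 12.81 and 14.10 at S14D and 4.77, 2.08, 9.23 and 8.22 at S21D, and it was at the floor in every array of the other 4 groups. From S28D to S35D 1 of the 15 passed, PRDX1, with a rise of 0.42, and 3.53% of all probe sets passed with a rise there. None of the 15 passed from S21D to S28D, where GSTA1 was the 1 probe set of 23999 to pass. There 4 had an unadjusted p under 0.05 (limma), all lower at S28D, and 389 of the 23999 probe sets had one in either direction. The differences of the 4 genes were -1.83 for NQO1, -3.99 for CBR1, -0.40 for TXN and -0.17 for FTL.

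Of 23 listed regulators of detoxification genes, 12 were measured and 8 exceeded 4 in at least 1 array. CEBPA, a factor of epithelial and liver differentiation, fell by 2.92 ± 0.57 from S14D to S21D (adjusted p = 0.00527, limma). It was the single regulator to pass in these comparisons, and 14.9% of all probe sets passed from S14D to S21D. HNF4A, a nuclear receptor of the enterocyte, was 11.55 ± 0.69 at S28D (SD, n = 4) and 12.47 ± 0.13 in arrays labelled S35D (SD, n = 3), with an adjusted p of 0.0956. NR1I2, the xenobiotic receptor PXR, was 2.93 ± 0.70 and 5.07 ± 1.33 in the same groups, with an adjusted p of 0.0562. AHR, ARNT, RXRA and PPARA did not exceed 4 in any array.

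Markers of several cell types of the mucosa moved at some of the steps at which GSTA1 differed. From S21D to S28D 1 of 23999 probe sets passed and 389 had an unadjusted p under 0.05 (limma). The counts of 0 in that comparison therefore carry no result for the markers. The mean of 16 enterocyte markers was 12.29 at S28D (array range 11.80 to 13.01) and 13.56 in arrays labelled S35D (13.46 to 13.68). Of the 16, MTTP of lipoprotein assembly, the cadherin CDH17 and KRT18 passed the test, with rises of 1.69, 1.10 and 1.36. Of all probe sets, 3.53% passed with a rise in that comparison. From S21D to S28D, where GSTA1 was 6.58 higher, the marker mean was 12.57 (12.18 to 13.01) and 12.29, and 0 of the 16 passed in limma, with 0 at an unadjusted p under 0.05. GSTA1 itself was the 1 probe set of 23999 to pass there. From S14D to S21D the marker mean was 13.07 and 12.57, and the single marker to pass, the glucose transporter SLC5A1, rose by 0.81. In that comparison 7 of the 16 had an unadjusted p under 0.05 (limma), as had 6822 of the 23999 probe sets. A mean of 5 markers of the proximal small intestine was 9.43 at S28D, 11.31 in arrays labelled S35D and 13.20 in array 2 of 21W35D. Across the 20 arrays the enterocyte mean had an r of 0.46 with GSTA1 and the proximal mean an r of 0.46, given as descriptions. Lymphocyte markers rose from S14D to S21D, where GSTA1 was lower. Of 8 measured T cell markers, 5 passed in that comparison, among them CD8A with a rise of 2.11 and CD3E with 1.55, and the median of the 8 was 1.52. Of 3 measured B cell markers, SPIB and BLNK passed, with rises of 2.38 and 1.14, and the median of the 3 was 2.38. From S14D to S21D 7.27% of all probe sets passed with a rise. Between S21D and S28D, where 1 of 23999 probe sets passed, none of these T or B cell markers passed in limma, and 0 had an unadjusted p under 0.05. From S28D to S35D the medians were 0.34 for T cells and -1.60 for B cells with 0 passing. Of these markers, 1 and 2 had an unadjusted p under 0.05 (limma), as had 5600 of the 23999 probe sets. The mean of the B cell markers was 12.53 at S28D (11.93 to 12.84) and 10.86 in arrays labelled S35D (9.40 to 11.76). Marker means of other cell types also varied between arrays of a group. The mean of 3 erythrocyte markers ran from 4.83 to 8.86 at S14D and from 5.07 to 5.69 at S21D. The mean of 6 smooth muscle markers ran from 7.53 to 10.71 in arrays labelled S35D and from 7.17 to 8.33 at S28D. The part of cell composition in the GSTA1 differences was not tested.

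The genes whose pattern was most like GSTA1 over the 20 arrays were ranked by Pearson r with the brightest probe set among 475 genes that varied with an SD of at least 1 and exceeded 6 in at least 3 arrays. They were IRF7 (0.74), GMPR (0.73), IFIT2 (0.73), ZBP1 (0.70), DDC (0.70), LOC780435 (0.69), RAB8A (0.69), DDX58 (0.69), TFF2 (0.69) and IFIT3 (0.68). The arrays share groups, and S21D stood apart in GSTA1, so these values describe the shared order of the groups and carry no test. In the 16 arrays outside S21D the r was 0.86 for IRF7 and 0.80 for GMPR, and 3 of the 10 genes were among the top 10 there.

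IRF7, IFIT2, IFIT3, ZBP1 and DDX58 are known as interferon-response genes. Their group means at S21D were not below those at S14D, unlike that of GSTA1. The IRF7 level was 8.94 at S14D, 9.11 at S21D, 9.79 at S28D, 11.94 in arrays labelled S35D, 8.98 in arrays labelled 21W28D and 11.43 in 21W35D. DDC, which makes dopamine and serotonin from their precursors, was nearer to GSTA1 at the young ages, at 10.96 in S14D, 9.44 in S21D, 10.01 in S28D and 11.78 in arrays labelled S35D. TFF2, a trefoil peptide of the mucus layer, had means of 6.18, 7.46, 8.27 and 11.46 in the same groups. When deviations from the group means were used, 0 of the 10 genes stayed among the top 10, and their r ranged from -0.20 for DDX58 to 0.54 for LOC780435.

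The lowest correlations were those of HS3ST3A1, a heparan sulfate sulfotransferase, at -0.70, GP2, the M cell receptor for bacteria, at -0.66 and DPEP1 at -0.61. GP2 had group means of 8.94 at S21D and 4.48 in arrays labelled S35D, and it was also lower at S14D, at 5.62. The likeness to the second GSTA1 probe set gave 7 of the same 10 genes at the top.

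**Figure D4:**
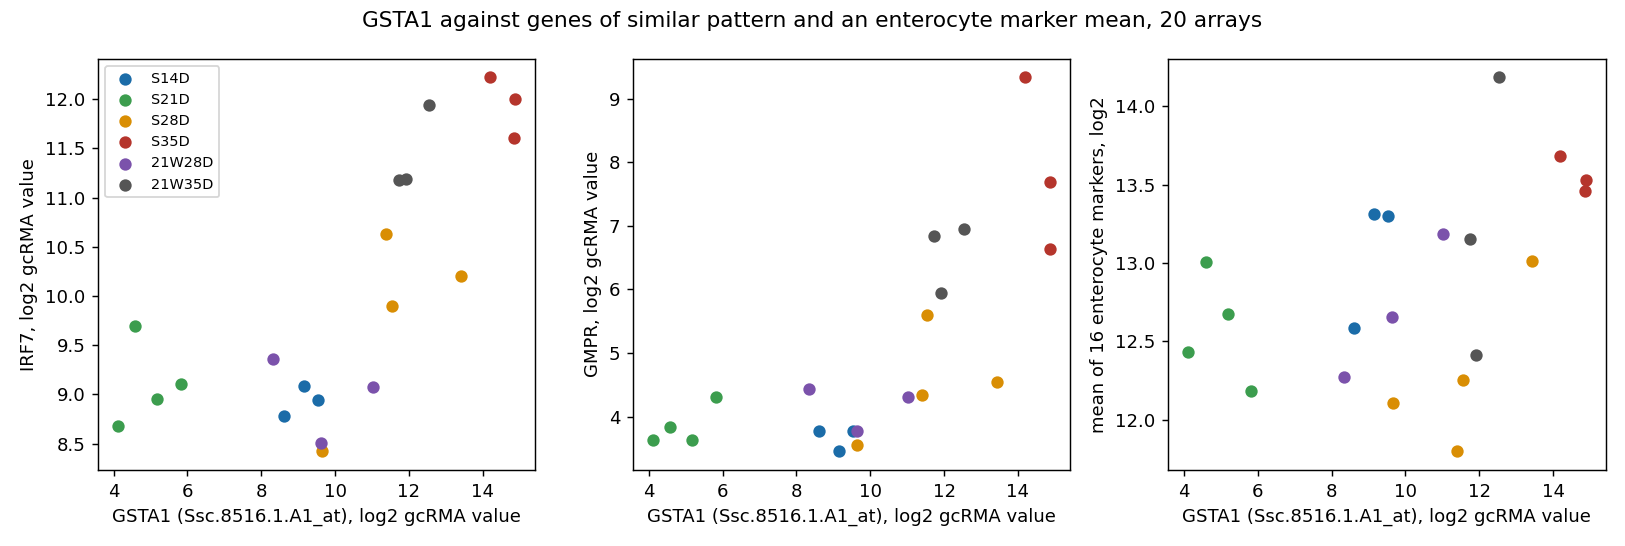
Log2 value of IRF7 (left), of GMPR (middle) and of the mean of 16 enterocyte markers (right) against the log2 value of the brightest GSTA1 probe set in the 20 arrays; each point is 1 piglet, coloured by deposited label. The arrays labelled S35D lie at the top right for IRF7 and GMPR, whereas the 4 S21D arrays lie far to the left with marker means of 12.18 to 13.01, within the range of the other groups.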

How the data were processed

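Total RNA of ileal mucosa was hybridised to 1 array per piglet. The authors normalised the signals with gcRMA and deposited them as log2 values for 24123 probe sets in 20 arrays; GCOS 1.2 is named in the submitters' processing notes. After gcRMA, 41.5% of values lay within 1 unit of the floor of 2.08, so differences of dim genes are compressed, and array medians were 5.07 to 5.35. The gene symbols came from the platform annotation (10069 probe sets with 1 symbol, 198 with several, 13732 with none). Of the probe sets with 1 symbol, 9961 were matched to the Sscrofa11.1 gene table, which served for names and gene order alone. The files named no genome build, and no sequence is printed.

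After leaving out 124 control probe sets, 23999 were fitted with limma 3.58.1 (R 4.3.3) using all 6 groups, with Benjamini-Hochberg adjustment over all of them. A gene with several probe sets was represented by its brightest. GSTA1 and the gene lists were chosen with earlier results of these data known. The genes named were GSTA1, all measured transferases, up to 4 members per comparison of each other list with the largest change at an adjusted p under 0.05, and the 10 highest and 3 lowest correlations with GSTA1; other genes named, such as the neighbours of GSTA1, GCLC, HNF4A, NR1I2, FABP7 and the tissue markers, were chosen after their values were seen. The alternatives were other probe sets, a filter on dim probe sets, a 2-fold minimum, only the compared groups, the methods' t-test, a replicate block, exchange of the S35D and 21W28D labels and leaving out each array. The numbers of the arrays did not pair them: among 46 pairs of arrays with the same number, deviations from the group means correlated above 0.1 in 20 and under -0.1 in 19, with a median of 0.03. The fit was tested on simulated data. Figures were drawn with matplotlib 3.10.9.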

Additional observations from a re-analysis of the deposited data

Results flagged for a closer look

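In groups of 4 arrays, 4 of 26 checks found an array far from the other 3. Values at the floor or tied, as for the dim GSTA1 probe set and GSTZ1, make such a finding likely. No excess over chance can therefore be read from this count, and the values are given as descriptions. For the dim GSTA1 probe set, array 2 of S21D was 3.16 against 2.08 in the others. GSTA4 was 7.38 in array 3 of S21D against 6.29 to 6.41. GSTM3 was 3.34 in array 2 of S28D against 7.52 to 8.12. GSTZ1 was 4.88 in array 1 of S21D against 5.04 in the other 3, a gap of little size.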

How the results depend on the processing

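The GSTA1 differences kept their direction when any 1 array was left out. With the S35D and 21W28D labels swapped, the difference became -1.84 from S28D to S35D, 9.72 from S21D to 21W28D, 3.14 from S28D to 21W28D, 2.40 from S35D to 21W35D and -2.58 from 21W28D to 21W35D. With the second brightest probe set, an alternative chosen after seeing the data, it was -1.79 from S14D to S21D, 3.67 from S21D to S28D, 3.73 from S21D to 21W28D, 0.061 from S28D to 21W28D and -1.36 from S35D to 21W35D. With the mean of the 3 probe sets, 1 of which is at the floor, it was -1.90, 3.32, 2.73, -0.59 and -1.32 in the same comparisons. The count of glutathione genes past the test from S14D to S21D was 6 with the replicate block, 4 with a 2-fold minimum, 6 with only the groups compared, 6 by the methods' t-test and 2 by it after adjustment, and 2 to 12 without 1 array. From S28D to S35D it was 6 with the replicate block, 0 with exchanged labels, 1 with only the groups compared, 0 by the methods' t-test after adjustment, and 1 to 12 without 1 array. With exchanged labels it was 8 from S21D to 21W28D and 10 from S28D to 21W28D. By the methods' t-test without adjustment it was 1 from S21D to S28D, 2 from S21D to 21W28D, 2 from S35D to 21W35D and 3 from 21W28D to 21W35D. The cause of these shifts was not tested. Of the 10 genes most like GSTA1, 0 stayed by deviations from group means, 0 with the third probe set as the pattern and 3 in the 16 arrays outside S21D, the last chosen after seeing the data. Values near the floor limit what can be read of dim genes such as SLC3A2, ABCC2 and GPX3.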
